A study of Mus musculus with 3 samples.

Results

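T-neutrophil barcodes are cell barcodes of a droplet library that hold transcripts of both T cells and neutrophils. They were chosen by measured values: at least 2 UMIs (unique molecular identifiers, each standing for 1 captured transcript) of Cd3d, Cd3e and Cd3g together, at least 0.5% of UMIs from S100a8 and S100a9, at most 1 UMI of C1qa, C1qb and C1qc together, and 0 UMIs of Epcam. The rule found 143 of the 14226 barcodes that passed limits of 200 genes or more and 10% mitochondrial UMIs or less. They held 351810 UMIs.

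The cells came from mammary tumours that grew in mice for 4 weeks from injected 2208L cells, a mouse mammary tumour line, and that were collected at a diameter of 0.7 to 1 cm. Living CD45-positive, DAPI-negative cells, that is, blood-derived cells that exclude a dye for dead cells, had been sorted and loaded for droplet RNA sequencing. All 3 libraries have the same labels, which give no treatment, strain or age and call the cell type tumour although the sort was for CD45. The labels do not state whether different animals gave the libraries, so p-values speak at most for the spread between these 3 libraries, which may be technical. The p-values also draw on information about variance that the test shares between genes.

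T cells recognise antigen through a receptor that signals through the CD3 chains. They are divided into CD8 T cells, which kill target cells, CD4 T cells, which help or, where they carry Foxp3, restrain other cells, and gamma-delta T cells, many of which make the cytokine IL-17A, a known inducer of neutrophil recruitment. Neutrophils carry large amounts of the calprotectin subunits S100a8 and S100a9. In mouse tumours they are found in several states, among them Retnlg-positive cells like those of blood, cells that make chemokines such as Cxcl3, and Siglecf-positive cells. A droplet that catches 1 T cell and 1 neutrophil, a T cell attached to a neutrophil, and a T cell that carries neutrophil RNA all give such a barcode, and UMI counts cannot tell them apart. The question asked of the counts was therefore which T-cell subset and which neutrophil state the barcodes hold, and whether they differ from a sum of T cells and neutrophils of the same library.

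The libraries held 9846404, 15259236 and 9445914 UMIs in all, and 110 of 14336 deposited barcodes were left out by the limits on genes and mitochondrial UMIs. Between libraries, 91 barcode sequences occurred more than once, of which 4 belonged to T-neutrophil barcodes. 0 barcode sequences were T-neutrophil barcodes in 2 libraries. Barcodes were compared with 2920 single T cells (the same Cd3, C1q and Epcam limits, with S100a8 and S100a9 under 0.5% of UMIs). The other partner was 3087 single neutrophils (S100a8 and S100a9 at least 2% of UMIs, 0 UMIs of the Cd3 genes and of the alpha-beta T-cell receptor constant genes Trac, Trbc1 and Trbc2, and the same C1q and Epcam limits).

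T-neutrophil barcodes made up 1.16% of the kept barcodes in replicate 1 (51 of 4380), 1.10% in replicate 2 (66 of 6007) and 0.677% in replicate 3 (26 of 3839). The exact 95% Clopper-Pearson intervals, which cover counting error only, were 0.868 to 1.53%, 0.851 to 1.396% and 0.443 to 0.991%. The mean was 0.980% ± 0.264 (SD, n = 3 libraries). Of the 3063 barcodes with at least 2 Cd3 UMIs under the same C1q and Epcam limits, the 143 were 4.67%, and by library the share was 4.84, 4.996 and 3.78%.

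The S100 share of T-cell barcodes thinned out toward 0.5% without a gap there, and in replicates 1 and 2 further barcodes gathered above it. In replicate 1 the bins from 0.3, 0.5, 0.75 and 1% held 12, 8, 3 and 17 barcodes, in replicate 2 they held 8, 10, 16 and 11, and in replicate 3 they held 5, 5, 3 and 7. The last of these bins ends at 1.5%, and the bins differ in width. The highest shares below the limit were 0.469, 0.458 and 0.457% in replicates 1, 2 and 3, and the lowest shares above it were 0.555, 0.508 and 0.576%. Between 0.3 and 0.5% lay 25 barcodes, and between 0.5 and 0.7% lay 20. Single T cells had a median S100 share of 0% in each library, with 145 ± 2.52 CPM of S100a8 and 190 ± 20.2 CPM of S100a9 in their summed UMIs (CPM, counts scaled to a common library total, SD, n = 3). T-neutrophil barcodes had a median S100 share of 1.47, 1.32 and 1.34%. In barcodes of tumour epithelium, taken as a background (at least 2 Epcam UMIs and 0 Cd3 UMIs, with no C1q limit), the median S100 share was 0.0174, 0.0176 and 0.0208%. Whether epithelial cells made these transcripts themselves was not tested. At least 0.5% was reached by 11 of 306 of those epithelial barcodes, or 3.59%, at median depths of 6610, 6519 and 9157 UMIs. By library these were 0.952, 5.22 and 4.65% of epithelial barcodes, and the last 2 lie inside the intervals of the T-cell shares. In B-cell barcodes (at least 2 Cd79a UMIs and 0 Cd3 UMIs) it was reached by 1 of 48, or 2.08%. Their median depths were 881, 1839 and 1687.5 UMIs. By library these were 1 of 15, 0 of 23 and 0 of 10. The exact intervals, 0.169 to 31.9%, 0 to 14.8% and 0 to 30.8%, contain the T-cell shares. A share of this size was thus also found in epithelial barcodes of 2 libraries, and the B-cell barcodes were too few to compare.

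**Figure D1:**
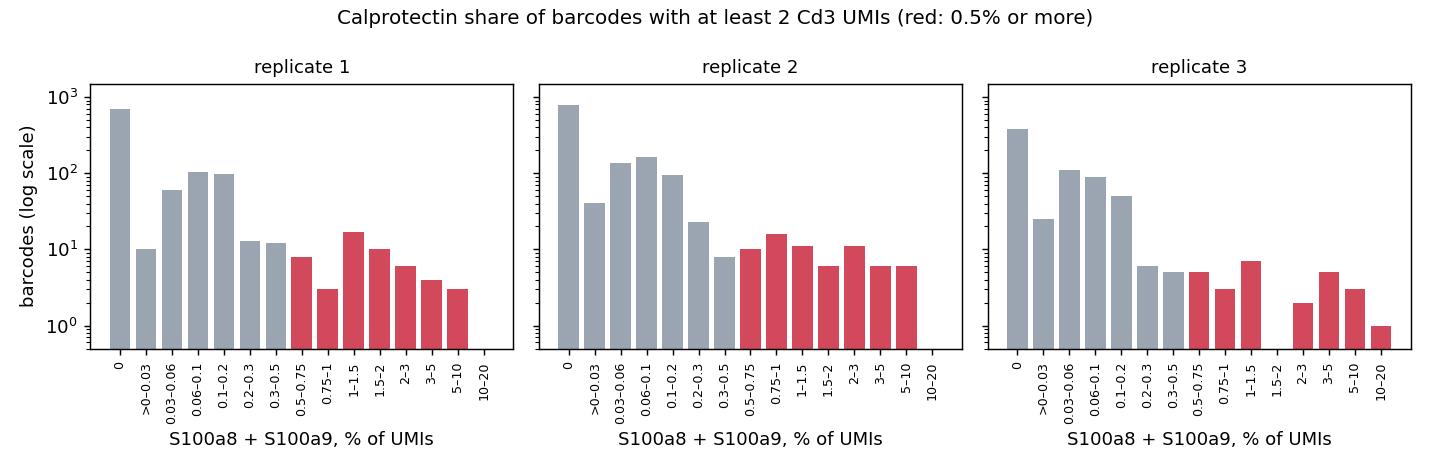
Number of barcodes (log scale) by the percent of UMIs from S100a8 and S100a9, for barcodes with at least 2 Cd3 UMIs in each of 3 libraries; red bars are the T-neutrophil barcodes, at 0.5% or more. The counts decline toward the limit with no gap there. They are higher again above it in replicates 1 and 2 (17 barcodes from 1% in replicate 1, 16 from 0.75% in replicate 2). Bins differ in width, and the 7 barcodes from 1% in replicate 3 lie in a wider bin than those just below 1%. The red bars hold 51, 66 and 26 barcodes.

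Genes that the rule did not use followed the S100 limit, so the label of the barcodes holds up. The neutrophil identity list has 12 genes, among them Csf3r and Cxcr2 (receptors for G-CSF and for chemokines), Il1r2 (a decoy receptor for interleukin 1) and G0s2 (an inhibitor of fat breakdown). At least 1 of them had a UMI in 141 of 143 T-neutrophil barcodes, or 98.6%, against 38.9% of single T cells and 99.8% of single neutrophils. At least 3 of the 12 were present in 87.4% of T-neutrophil barcodes, against 3.94% of single T cells and 93.3% of single neutrophils. Among barcodes with at least 2 Cd3 UMIs, the share with a UMI of this list was 38.5% below 0.1% S100, 39.4% from 0.1 to 0.3%, 76% of the 25 from 0.3 to 0.5%, 97.8% from 0.5 to 1%, 98.0% from 1 to 2% and 100% above. Both readouts count UMIs of the same barcodes, so this is a description and carries no test. Median depth also differed, at 1503.5 UMIs below 0.1% S100, 1180 UMIs from 0.1 to 0.3%, and 1991 to 2237 UMIs in the higher bins.

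The T-cell identity list of 12 genes, which includes Lck (the kinase that starts T-cell receptor signalling), Il7r (the interleukin 7 receptor) and Bcl11b (a T-lineage transcription factor), was also held. At least 1 of its genes had a UMI in 137 of 143 T-neutrophil barcodes, or 95.8%, against 98.1% of single T cells and 3.21% of single neutrophils. At least 3 were present in 70.6% of T-neutrophil barcodes, against 74.7% of single T cells and 0.0324% of single neutrophils. By S100 share, at least 1 was present in 97.8% of members from 0.5 to 1%, 100% from 1 to 2% and 89.4% of the 47 above. The Cd3 limit mattered: of the 21 members with exactly 2 Cd3 UMIs 76.2% had a UMI of the T-cell list, and of the 180 barcodes with 1 Cd3 UMI and the same S100 share, 12.8% had one.

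Levels of identity genes lay between those of the partners. G0s2 averaged 2722 ± 460 CPM in T-neutrophil barcodes, against 120 ± 17.8 CPM in single T cells and 10092 ± 851 CPM in single neutrophils (SD, n = 3 libraries each, also below). Csf3r averaged 283 ± 93.9 CPM in T-neutrophil barcodes, against 14.0 ± 3.41 CPM in single T cells and 700 ± 175 CPM in single neutrophils. Cxcr2 averaged 201 ± 37.7 CPM in T-neutrophil barcodes, against 5.16 ± 2.74 CPM in single T cells and 474 ± 93.0 CPM in single neutrophils. All 3 genes were highest in single neutrophils and lowest in single T cells. Il1b, the inflammatory cytokine and a gene in neither identity list, averaged 4851 ± 284 CPM in T-neutrophil barcodes, against 286 ± 71.9 CPM in single T cells and 14466 ± 2268 CPM in single neutrophils. Trac, the constant part of the T-cell receptor alpha chain, averaged 444 ± 69.2 CPM in T-neutrophil barcodes and 575 ± 118 CPM in single T cells. It has 0 UMIs in single neutrophils because the gate required it.

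A weight was fitted in each library so that a weighted mix of the summed single T cells and summed single neutrophils came nearest to the T-neutrophil barcodes on the 2 identity lists. By this fit T cells gave 65.5, 72.7 and 67.9% of the UMIs of T-neutrophil barcodes in replicates 1, 2 and 3, a mean of 68.7% ± 3.63 (SD, n = 3). With the weight from the T-cell list alone the values were 70.9, 64.8 and 88.1%, a mean of 74.6% ± 12.1. Replicate 2 was then lowest instead of highest, so the share and its order over libraries depended on the lists. For comparison every single T cell was added to every single neutrophil of its library. In these pairs, kept where the sum passed the rule, the T-cell partner, counted directly, gave 58.7, 63.6 and 60.9% of UMIs, a mean of 61.1% ± 2.44. The fitted T-cell share of T-neutrophil barcodes was thus higher than that of pairs in 3 of 3 libraries. The T-cell weight also followed the S100 limit, and for members with at least 2% S100 it was 53.7%.

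T-neutrophil barcodes were deeper than either partner and shallower than most sums of both. Their median depth was 1632, 2287 and 2438.5 UMIs in replicates 1, 2 and 3, against 2277, 2532 and 3128 UMIs in pairs. Single T cells had medians of 1268, 1540 and 1856 UMIs, and single neutrophils had medians of 942, 879 and 1162 UMIs. The barcodes below the median of pairs numbered 43 of 51 in replicate 1, 40 of 66 in replicate 2 and 20 of 26 in replicate 3. Genes per barcode had medians of 751, 979 and 1071 in T-neutrophil barcodes, against 600, 672 and 799 in single T cells and 442, 436 and 540 in single neutrophils. The mitochondrial share, unlike depth and genes, lay between the partners, with medians of 1.404, 1.60 and 1.51% in T-neutrophil barcodes. It was 2.03, 2.02 and 2.23% in single T cells, and 0.504, 0.470 and 0.554% in single neutrophils. Pairs assume that both cells are captured at their single depth, and whether that holds was not tested.

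**Figure D2:**
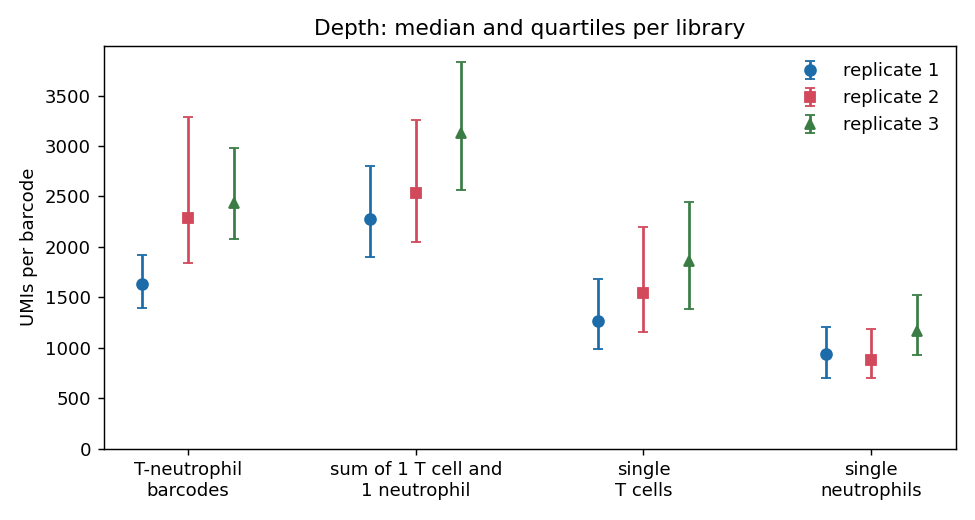
Median UMIs per barcode with the quartiles as bars, for T-neutrophil barcodes, sums of 1 T cell and 1 neutrophil, single T cells and single neutrophils, by library. Median depth was 1632 to 2438.5 UMIs in T-neutrophil barcodes, below that of the sums (2277 to 3128) and above that of either single cell in the same library.

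T-neutrophil barcodes held CD8 genes, gamma-delta genes or Il17a, and less often Cd4 or Foxp3, and which of the first 2 groups led depended on the library. A barcode was assigned by its UMIs of Cd8a or Cd8b1, of Cd4 or Foxp3, or of Trdc, Tcrg-C1 or Il17a. The CD8 genes alone were found in 48 of 143 barcodes, the gamma-delta or Il17a genes alone in 35, Cd4 or Foxp3 alone in 9, several groups in 7 and none in 44. By library the CD8 genes alone were found in 16, 25 and 7 barcodes and the gamma-delta or Il17a genes alone in 22, 5 and 8, so CD8 led in replicate 2, which sets the pooled order, and not in replicates 1 and 3. Over libraries the CD8 share was 32.1% ± 5.51 in T-neutrophil barcodes and 33.9% ± 6.35 in pairs. The gamma-delta or Il17a share was 27.2% ± 18.1 in T-neutrophil barcodes and 31.8% ± 13.7 in pairs. The Cd4 or Foxp3 share was 6.10% ± 5.48 in T-neutrophil barcodes and 4.81% ± 2.51 in pairs (SD, n = 3). Each of these differences was smaller than the SD between libraries. Of single neutrophils 99.0% had none of these genes, a share that their gate on Cd3 and alpha-beta receptor genes partly fixes. Tcrg-C1 has near-identical copies among the gamma chain constant genes, and how the authors split reads among them was not checked here.

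Both the gamma-delta or Il17a share and the CD8 share ranged more widely between libraries than between T-neutrophil barcodes and pairs of the same library. The gamma-delta or Il17a share was 43.1, 7.58 and 30.8% of T-neutrophil barcodes in replicates 1, 2 and 3, against 35.8, 16.6 and 43.0% of pairs. Replicate 2 was lowest in both, and T-neutrophil barcodes were above pairs in replicate 1 and below them in the other 2 libraries. The CD8 share was 31.4, 37.9 and 26.9% of T-neutrophil barcodes, against 29.6, 41.2 and 30.9% of pairs, and replicate 2 was highest in both. Barcodes without any subset gene were 21.6, 37.9 and 30.8% of T-neutrophil barcodes, against 28.5, 31.3 and 16.9% of pairs.

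**Figure D3:**
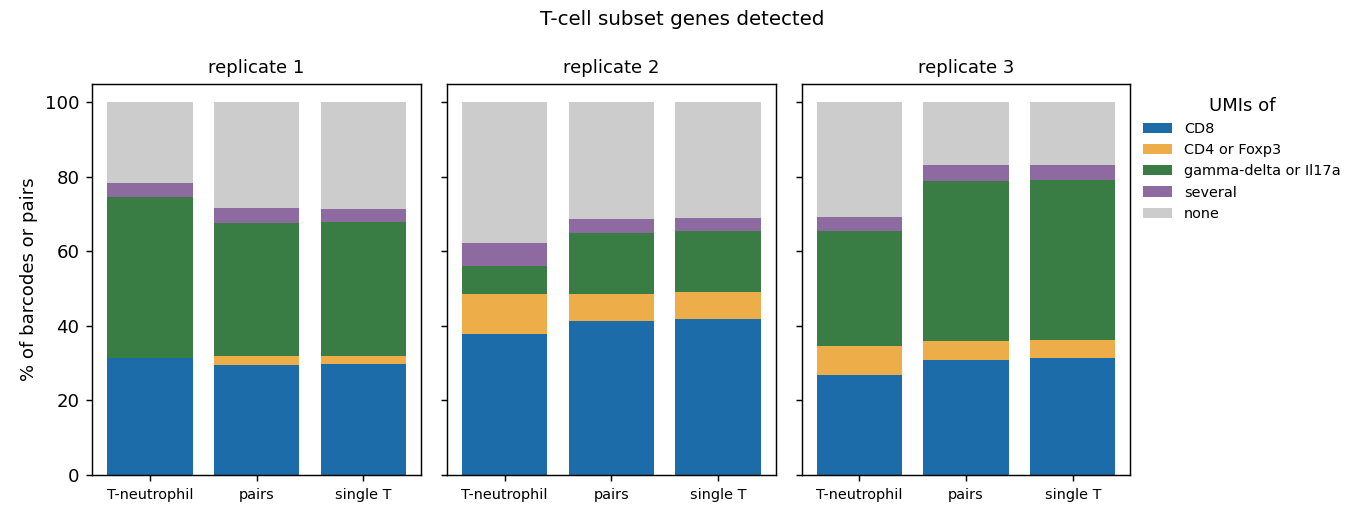
Percent of T-neutrophil barcodes, of all pairs of 1 T cell and 1 neutrophil that pass the rule, and of single T cells with UMIs of CD8 genes (Cd8a, Cd8b1), Cd4 or Foxp3, gamma-delta genes or Il17a (Trdc, Tcrg-C1, Il17a), several groups or none, by library. In replicate 2 the gamma-delta or Il17a share was the lowest in T-neutrophil barcodes (7.58%) and in pairs (16.6%).

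Levels of the subset and state genes were tested on summed UMIs, 1 sum of T-neutrophil barcodes and 1 fitted mix per library. The test was edgeR's quasi-likelihood test with library as a block, and p was adjusted by Benjamini-Hochberg over the 7124 genes tested. Of these genes 0 were called at an adjusted p under 0.05, so percent called was 0 over all genes. At an unadjusted p under 0.05 there were 318 genes, or 4.46%, and the median log2 difference of all genes was -0.07 (0.027 with library totals). DESeq2 called 0 genes, with 69 at an unadjusted p under 0.05. Some other settings called 1 to 6 genes, named in the closing section: 0.014% of genes with library totals, 0.0271% with no filter on low counts, 0.0144% against the mean of all pairs, 0.0609% against that mean with neutrophils from 0.5% S100, 0.0169% for members with at least 2% S100, 0.0145% with at least 3 Cd3 UMIs, 0.0285% for barcodes under 5 Cd74 UMIs, 0.0413% without replicate 2 and 0.08% without replicate 3. The 3 sums of T-neutrophil barcodes rest on 51, 66 and 26 barcodes, and a count of 3 UMIs, the limit that a count of 0 allows, stands for 33.1, 15.9 and 41.1 CPM in them. A p that misses the threshold does not show that T-neutrophil barcodes and the mix are alike. For that reason an interval is given for Cd8a, Cd4, Foxp3, Trdc, Il17a, Retnlg, Cxcl3 and Siglecf. Other genes carry the standard error (SE) alone, where one is given. SE and interval come from the test, which shares information about variance between genes. They can be narrower than the spread of a single gene over the 3 libraries.

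Cd8a, a chain of the CD8 co-receptor (chr6:71373427-71379173, plus strand, GRCm38, positions here and below from GENCODE M21), stood at 210, 244 and 151 CPM in T-neutrophil barcodes of replicates 1, 2 and 3, against 150, 253 and 191 CPM in the mix. The groups overlapped, with T-neutrophil barcodes higher in replicate 1 alone. T-neutrophil barcodes differed from the mix by -0.06 ± 0.21 on the log2 scale (SE; 95% interval -0.50 to 0.37; edgeR adjusted p = 0.983). Its sign turned with the scaling, and it was 0.036 with library totals. A Cd8a UMI was found in 45 of 143 T-neutrophil barcodes, a mean share of 30.2% ± 5.30, and in 25.9% ± 5.01 of pairs.

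Cd4, the co-receptor of helper T cells (chr6:124864692-124888221, minus strand), was sparse, with 0, 31.9 and 27.4 CPM in T-neutrophil barcodes, against 12.3, 35.1 and 20.7 CPM in the mix. These values are 0, 6 and 2 UMIs. Cd4 differed from the mix by a log2 of -0.29 ± 0.57 (95% interval -1.46 to 0.87; edgeR adjusted p = 0.977). Foxp3, the transcription factor of regulatory T cells (chrX:7573644-7595245, plus strand), stood at 0, 21.2 and 13.7 CPM in T-neutrophil barcodes, against 2.64, 9.37 and 4.34 CPM in the mix. Its 5 UMIs lay in 4 barcodes. Foxp3 differed by a log2 of 1.02 ± 0.74 (95% interval -0.48 to 2.52; edgeR adjusted p = 0.977). For both genes the counts were too low to detect a difference at this depth, and in replicate 1 the count of 0 allows a share of up to 5.88% of T-neutrophil barcodes with a UMI (3 of 51, the limit used for a count of 0).

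Trdc, the constant part of the T-cell receptor delta chain (chr14:54142851-54148868, plus strand), stood at 353, 58.4 and 247 CPM in T-neutrophil barcodes, against 285, 126 and 387 CPM in the mix. It was lowest in replicate 2 in both, and T-neutrophil barcodes were below the mix in replicates 2 and 3. The log2 difference was -0.49 ± 0.23 (95% interval -0.95 to -0.03; edgeR adjusted p = 0.977), and it ran between -1.01 without replicate 1 and -0.29 without replicate 2. Il17a (chr1:20730905-20734496, plus strand) stood at 618, 117 and 576 CPM in T-neutrophil barcodes, against 425, 227 and 487 CPM in the mix. Its log2 difference was -0.09 ± 0.19 (95% interval -0.48 to 0.30; edgeR adjusted p = 0.977), and 0.025 with library totals. In replicate 3, 20 of the 42 Il17a UMIs lay in 1 barcode. Il17a was detected in 22 T-neutrophil barcodes, a mean share of 16.8% ± 8.25 against 19.8% ± 7.70 of pairs, and Trdc in 25, a mean share of 20.6% ± 11.9 against 24.3% ± 12.9 of pairs.

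Retnlg, a resistin-like protein abundant in blood and marrow neutrophils (chr16:48872621-48874496, plus strand), stood at 33.1, 149 and 261 CPM in T-neutrophil barcodes, against 285, 191 and 181 CPM in the mix. T-neutrophil barcodes were far below the mix in replicate 1 and above it in replicate 3. The log2 difference was -0.68 ± 0.29 (95% interval -1.26 to -0.09; edgeR adjusted p = 0.977). Without replicate 3 it was -1.15, with an adjusted p of 0.0121, and replicate 3 has 10 of its 19 Retnlg UMIs in 1 barcode. Without replicate 1 it was -0.13, and for members with at least 2% S100 it was 0.044, with no call in either. The mix holds neutrophils with at least 2% S100, while members need 0.5%, and levels of state genes depend on this limit. Retnlg averaged 694 ± 132 CPM in single neutrophils from 2% and 496 ± 78.5 CPM in those from 0.5%. For Cxcl3 these values were 692 ± 371 and 637 ± 348 CPM, and for Siglecf 107 ± 8.25 and 120 ± 27.7 CPM. The share of barcodes with a Retnlg UMI was 14.5% ± 11.04 in T-neutrophil barcodes (17 of 143) and 15.2% ± 0.975 in pairs.

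Cxcl3, a chemokine that attracts neutrophils through Cxcr2 (chr5:90786103-90789600, plus strand), stood at 761, 31.9 and 54.9 CPM in T-neutrophil barcodes, against 335, 74.4 and 295 CPM in the mix. The value of replicate 1 rests on 69 UMIs in 8 barcodes, 21 of them in 1 barcode, and replicate 2 has all 6 UMIs in 1 barcode. The log2 difference was -0.11 ± 0.31 (95% interval -0.74 to 0.53; edgeR adjusted p = 0.979), and 0.00241 with library totals. By library the difference was 1.08, -1.26 and -2.62, each outside this interval, so the interval understates the spread between libraries. It was -1.99 without replicate 1 and 0.48 without replicate 3, with no call in either. A Cxcl3 UMI was found in 11 T-neutrophil barcodes, a mean share of 8.30% ± 7.10 against 11.6% ± 6.03 of pairs.

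Siglecf, a sialic-acid-binding receptor of eosinophils and of a tumour neutrophil state (chr7:43351341-43359531, plus strand), was below the mix in 3 of 3 libraries. It stood at 11.03, 21.2 and 13.7 CPM in T-neutrophil barcodes, on 6 UMIs in all, against 36.1, 30.8 and 40 CPM in the mix. How many of all genes were likewise on 1 side in every library was not counted. The percent called over all genes was 0, and Siglecf was not called. For Siglecf the log2 difference was -1.10 ± 0.56 (95% interval -2.25 to 0.04; edgeR adjusted p = 0.977), and -1.79 without replicate 2. A Siglecf UMI was found in 1, 4 and 1 T-neutrophil barcodes, or 1.96, 6.06 and 3.85%, against 8.82, 9.67 and 12.3% of pairs. With so few UMIs the exact intervals of these shares, 0.0496 to 10.4%, 1.68 to 14.8% and 0.0973 to 19.6%, contain the values of the pairs.

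**Figure D4:**
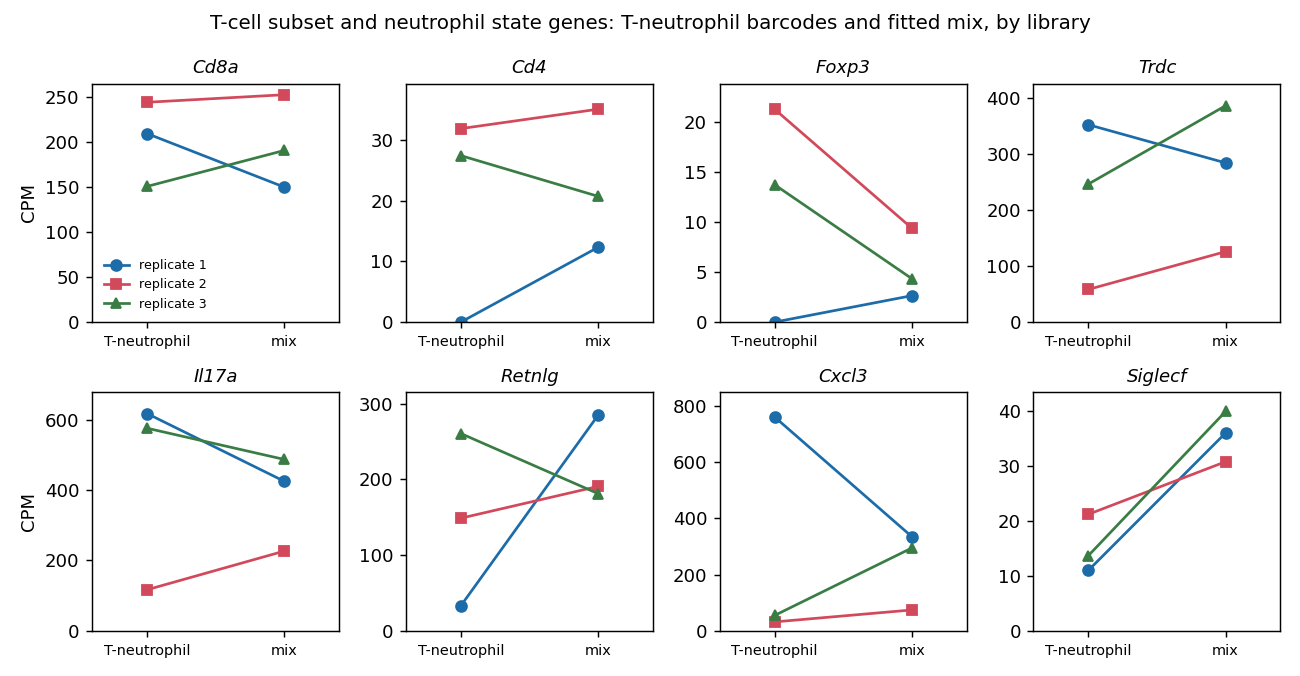
Levels (CPM, linear axes from 0) of 5 T-cell subset genes and 3 neutrophil state genes in T-neutrophil barcodes and in the fitted mix, with 1 line per library. Siglecf was lower in T-neutrophil barcodes in 3 of 3 libraries (11.03, 21.2 and 13.7 against 36.1, 30.8 and 40 CPM), and the lines of Cd8a, Trdc, Il17a, Retnlg and Cxcl3 run in both directions.

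Whether T-cell subset and neutrophil state genes were tied to each other was not tested. The counts below are small, pooled over the 3 libraries and set against no expected count. Of the 55 T-neutrophil barcodes with a CD8 gene, 7 had Retnlg, 5 had Cxcl3 and 4 had Siglecf. Of the 41 with a gamma-delta gene or Il17a, 4 had Retnlg, 3 had Cxcl3 and 0 had Siglecf. Of the 10 with Cd4 or Foxp3, 1 had Retnlg, 0 had Cxcl3 and 1 had Siglecf.

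The gene lists around these genes likewise gave 0 calls in either direction, as did all genes tested. In the CD8 list 13 of 14 genes were tested, with a median log2 difference of -0.19 beside -0.07 over all genes. Its lowest p values belonged to the granzymes Gzmb (-0.48 ± 0.23) and Gzmk (0.50 ± 0.25), which point in opposite directions. In the list of IL-17-type gamma-delta T cells 10 of 12 genes were tested, with a median of -0.28, and Cd163l1, a scavenger receptor of these cells, was at -0.58 ± 0.41. The regulatory T-cell list (8 of 10 tested) had a median of 0.06, with the costimulatory receptor Tnfrsf9 at -0.96 ± 0.44. The list of conventional CD4 T cells (5 of 6 tested) had a median of 0.20. Its transcription factors Gata3 (0.63 ± 0.35) and Tbx21 (1.14 ± 0.63) were above the mix in 3 of 3 libraries, on 24 and 8 UMIs. The alpha-beta receptor constant genes (3 tested) had a median of -0.08, with Trbc1 at -0.34 ± 0.17 and Trbc2 at -0.08 ± 0.13, near-identical genes whose reads may be split between them. Trbc2 was at 0.034 with library totals.

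In the list of blood-like neutrophils 8 of 12 genes were tested, with a median of -0.22, and Wfdc21, a secreted granule protein gene, was at -0.25 ± 0.19. In the list named for Cxcl3 all 12 genes were tested, with a median of -0.16. Its lowest p belonged to Hilpda, a hypoxia-induced lipid droplet gene, which stood at 739, 255 and 686 CPM in T-neutrophil barcodes, against 960, 465 and 747 CPM in the mix. Hilpda was below the mix in 3 of 3 libraries, by -0.57 ± 0.15 (log2; edgeR adjusted p = 0.955). It was called against the mean of all pairs (-0.82, adjusted p = 0.0266) and without replicate 3 (-0.70, adjusted p = 0.0110). Ccl4, a chemokine that draws T cells and monocytes, was at -0.34 ± 0.14, and at -0.50 without replicate 3 (adjusted p = 0.0110). The list named for Siglecf (6 of 8 tested) had a median of 0.06, with Xbp1, a factor of the unfolded protein response, at -0.53 ± 0.25. Interferon-stimulated genes (10 tested) had a median of 0.08, with Irf7 at 0.26 ± 0.19 and Usp18 at 0.37 ± 0.28.

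Adhesion and activation genes had 0 calls, and their members lay on both sides of the mix. Of the adhesion list 14 of 15 genes were tested, with a median of -0.01 and a range of -1.14 to 0.34, and its lowest p values belonged to the costimulatory ligand Cd86 (-1.14 ± 0.83, 3 UMIs) and the integrin chain Itgal (-0.30 ± 0.28). Icam1, the ligand of that integrin, averaged 55.1 ± 19.2 CPM in T-neutrophil barcodes, against 28.2 ± 5.23 CPM in single T cells and 120 ± 12.7 CPM in single neutrophils. Of the activation list 11 of 12 genes were tested, with a median of 0.01 and a range of -0.88 to 0.39. Its lowest p values belonged to feedback inhibitors of NF-kB, Nfkbia at -0.27 ± 0.14 and Tnfaip3 at 0.39 ± 0.21, and Tnfaip3 was above the mix in 3 of 3 libraries. Stress and death genes (7 of 8 tested) had a median of 0.07, with Hspa1a at -0.57 ± 0.49 and Bcl2l11 at -0.37 ± 0.40.

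The 3 genes with the lowest p over all genes were named after their values were seen, and none was called. Gzma, a granzyme of NK cells and some T cells (chr13:113093825-113100981, minus strand), was at 55.2, 244 and 0 CPM in T-neutrophil barcodes, against 31.2, 72.9 and 9.64 CPM in the mix. The log2 difference was 1.42 ± 0.30 (edgeR adjusted p = 0.188), and it rests on 46 UMIs in 9 barcodes of replicate 2. Without replicate 3, which has 0 UMIs, it was called at 1.501 (adjusted p = 0.000876), and with library totals at 1.48 (adjusted p = 0.0271). Without replicate 2 it was 0.34 and not called. The NK list that holds Gzma (4 of 8 tested) had a median of -0.11, with the receptor gene Klrk1 at -0.27 ± 0.19. Penk, the precursor of enkephalin peptides, had 0 UMIs in T-neutrophil barcodes, against 26.0, 38.4 and 34.2 CPM in the mix, and 30 of 2920 single T cells carried it. A count of 0 allows 33.1, 15.9 and 41.1 CPM, and the mix was above this limit in replicate 2 alone. Ccl1, a chemokine of activated T cells, was at 0, 26.6 and 0 CPM in T-neutrophil barcodes, against 70.8, 91.9 and 8.19 CPM in the mix, on 5 UMIs in 3 barcodes. Its log2 difference was -2.36 ± 0.53 (edgeR adjusted p = 0.188), and -2.33 without replicate 3 (adjusted p = 0.0110). The share of barcodes with a Ccl1 UMI was 1.52% ± 2.62 in T-neutrophil barcodes and 1.53% ± 1.20 in pairs. In single T cells, which enter the mix, 482 Ccl1 UMIs lay in 55 of 2920 barcodes, with up to 59 in 1 barcode. The level in the mix thus rests on few cells.

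**Figure D5:**
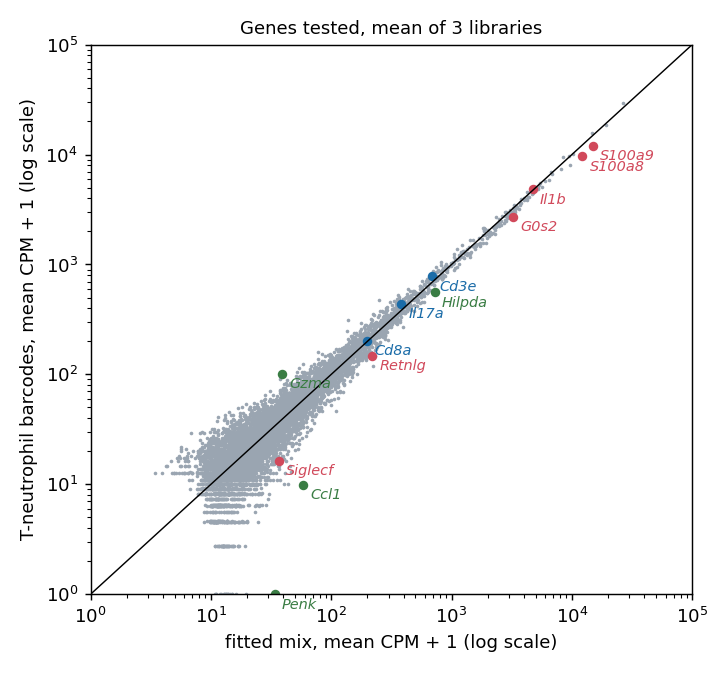
Mean level over 3 libraries (CPM + 1, log scale on both axes) of each of the 7124 genes tested, in T-neutrophil barcodes against the fitted mix, with the line of equal levels. Genes lie along the line and 0 are called; Gzma lies above it and Penk and Ccl1 below, each with an adjusted p of 0.188.

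Markers of epithelium, of B and plasma cells and of erythroid and mast cells were low. Those of antigen-presenting cells and of the cell cycle varied by library. The Epcam and C1q limits of the rule select against epithelium and macrophages, so low values of these 2 lists are partly fixed by it. Of the 8 epithelial genes, Krt8 had 0 UMIs, Krt18 had 0, 5 and 2, and the list summed to 0, 26.6 and 27.4 CPM. Krt18 was at -0.02 ± 0.67, and at 0.083 with library totals. The B and plasma cell list summed to 22.1, 5.31 and 13.7 CPM through 1 of its 6 genes, Cd79b (-0.24 ± 0.78). The erythroid and mast cell list had 0 UMIs, and none of its genes was tested. The macrophage list summed to 309, 988 and 261 CPM in T-neutrophil barcodes, against 519, 481 and 322 CPM in single T cells and 579, 650 and 437 CPM in single neutrophils. A single barcode of replicate 2 held 93 of its 152 UMIs of Apoe, a lipid carrier, which are among the 186 UMIs of the list there. The list had 2, 7 and 3 of its 8 genes with a UMI, and a median of 0.31 over the 4 tested, with Csf1r, the receptor of a macrophage growth factor, at 0.55 ± 0.43. A UMI of the macrophage list was found in 41.2, 62.1 and 50% of T-neutrophil barcodes, which were deeper than either partner. In single T cells it was found in 24.9, 34.7 and 31.4%, and in single neutrophils in 33.7, 40.4 and 38.5%. The monocyte and dendritic cell list (6 of 12 tested) had a median of -0.09. It summed to 772, 2582 and 974 CPM in T-neutrophil barcodes. In single T cells it summed to 1837, 2606 and 1379 CPM, and in single neutrophils to 659, 1212 and 436 CPM. Cd74, the invariant chain of class II antigen presentation, stood at 66.2, 1116 and 68.6 CPM in T-neutrophil barcodes, against 452, 839 and 263 CPM in the mix, and H2-Ab1, a class II chain, at 33.1, 377 and 27.4 CPM, against 248, 335 and 113 CPM. Both were below the mix in replicates 1 and 3 and above it in replicate 2, where 1 barcode held 69 of 210 Cd74 UMIs. Without replicate 2 both were called lower, Cd74 at -2.59 (adjusted p = 0.00175) and H2-Ab1 at -2.76 (adjusted p = 0.0196). For members with at least 2% S100 (13, 23 and 11 barcodes), Cd74 was below the mix in 3 of 3 libraries. It was called there at -3.14 (edgeR adjusted p = 5.14e-07). Among single T cells of replicate 2, which enter the mix, 1 barcode held 312 of 2251 Cd74 UMIs. Cd74 was at -0.58 ± 0.27 and H2-Ab1 at -0.67 ± 0.29 with all 3 libraries (edgeR adjusted p = 0.977 for both). The part of antigen-presenting cells in these barcodes was not tested.

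Cell cycle genes (7 of 8 tested) had the highest list median, 0.54, and differed by library. They summed to 44.1, 499 and 919 CPM in T-neutrophil barcodes, against 422, 481 and 412 CPM in single T cells and 13.5, 19.7 and 15.0 CPM in single neutrophils. Stmn1, a microtubule regulator, was at 22.1, 228 and 494 CPM in T-neutrophil barcodes, against 113, 157 and 135 CPM in the mix, a log2 difference of 0.59 ± 0.29 (edgeR adjusted p = 0.977), and -0.044 without replicate 3. Tyms, the enzyme that makes thymidylate, was at 0.74 ± 0.49. The sum was highest in replicate 3, where its 67 UMIs lay in 11.5% of the 26 T-neutrophil barcodes. By the share of barcodes with a UMI of the list, replicate 2 was highest, with 7.84, 22.7 and 11.5% of T-neutrophil barcodes in replicates 1, 2 and 3, against 11.8, 16.0 and 12.4% of single T cells.

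Pairs of T cells with another cell type gave a measure of how often barcodes combine. The product of the numbers of T cells and partners over the number of kept barcodes was taken as a scale. With neutrophils counted from 0.5% S100, T-neutrophil barcodes reached 18.1, 18.9 and 9.22% of this product, a mean of 15.4% ± 5.38. Barcodes that paired T cells with macrophages (at least 0.5% of UMIs from C1q genes and less than 0.5% from S100) numbered 45, 99 and 28 and reached 35.9, 74.6 and 53.6%, a mean of 54.7% ± 19.4. The neutrophil pairing was lower in 3 of 3 libraries, by 39.3 percentage points (two-sided exact permutation p = 0.25 with values paired by library, the smallest that 3 pairs allow). Barcodes of T cells with epithelium numbered 2, 5 and 0 and reached 9.39, 26.0 and 0% of the product, a range that holds the values of the neutrophil pairing. The T-macrophage barcodes had median depths of 6959, 6815 and 9269 UMIs, against 1632, 2287 and 2438.5 UMIs in T-neutrophil barcodes, and the part of depth and of the different limits in this difference was not tested.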

How the data were processed

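Gene-by-barcode matrices of 3 droplet libraries were used as the authors deposited them: unnormalised UMI counts, with 28692 genes and at least 500 UMIs in every barcode. Cell Ranger and Seurat are named in the submitters' processing notes, with the build mm10 and no tool version, and a software version of 3.0.0 stands in the file headers. Whether the chemistry was 5′ or 3′ could not be settled, since the labels mention both. Doublets were not removed, since these barcodes may be doublets.

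The members, gene lists and tests were chosen with earlier results of these data known, and the genes of the rule and of both identity lists are not counted as calls. UMIs were summed per library, so barcodes are not replicates. The mix is the least-squares weighted sum of single T cells and single neutrophils of the library on both identity lists, rounded to whole counts. Pairs are every single T cell added to every single neutrophil of its library, where the sum passed the rule. The test was glmQLFTest of edgeR 4.0.16 (the quasi-likelihood test; limma 3.58.1 and R 4.3.3), after TMM scaling and filterByExpr. Library was a block, because both sums of a library share its barcodes' origin. p-values were adjusted by Benjamini-Hochberg at 0.05. DESeq2 1.42.0 was an alternative. The fit was tested on data with known differences. Other values came from Python 3.11.15, numpy 2.4.6, scipy 1.17.1 and pandas 2.3.3, with matplotlib 3.10.9 for figures.

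Genes named are the 8 subset and state genes, the called genes of a list (4 at most; where a list had no call, the 2 of lowest p), and the 10 highest and 10 lowest called genes with a mean log2 CPM of at least 5 and 1 direction in 3 of 3 libraries, of which there were none. A gene that this rule names is not reported here. Gzma, Penk and Ccl1, the levels of Il1b, Icam1, Trac and the identity genes, and Ly86, Xcl1, Ccl3 and Hist1h2ap were named after their values were seen. Nectin2 and Pclaf were not found under these symbols, and Itgam was matched by identifier. Alternatives were other scaling, DESeq2, no filter, no block, other limits of the rule and of the single cells, the mean of all pairs as the mix, another weight, and each library left out.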

Additional observations from a re-analysis of the deposited data

How the results depend on the processing

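Counts of genes called against the mix were 0 with DESeq2, with no replicate block, with neutrophils from 5% S100, with T cells under 0.1% and, chosen after seeing the data, with neutrophils from 0.5%, with the weight from the T-cell list alone and with stricter limits on barcodes (500 genes, 5% mitochondrial UMIs). Library as a block thus changed no call. They were 1 with library totals (Gzma), 4 with no filter on low counts (Penk, Hilpda, Ccl1, Gzma), 1 against the mean of all pairs (Hilpda), 1 for members with at least 2% S100 (Cd74), and 1 with at least 3 Cd3 UMIs (Gzma). Chosen after seeing the data, they were 4 against all pairs with neutrophils from 0.5% (Hilpda, Ccl3, Hist1h2ap, Gzma) and 2 for barcodes under 5 Cd74 UMIs (Ccl1, Gzma). Leaving out 1 library gave 0 to 6 calls: 0 without replicate 1, 3 without replicate 2 (Cd74, H2-Ab1, Xcl1) and 6 without replicate 3 (Hilpda, Ccl1, Ccl4, Ly86, Gzma, Retnlg). The cause of these differences was not tested.

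The percent of T-neutrophil barcodes was 0.322 at 2% S100 and 1.42 with the stricter limits on barcodes, and 0.888 to 1.13 with 1 library left out. The percent of UMIs from T cells was 53.7 at 2% S100, 61.1 in all pairs, 59.8 in all pairs with neutrophils from 0.5% and 74.6 with the weight from the T-cell list alone, and 66.7 to 70.3 with 1 library left out. The median log2 difference of all genes was -0.07 with TMM and 0.027 with library totals, a shift that turned the sign of Cd8a (0.036), Il17a (0.025), Cxcl3 (0.0024), Trbc2 (0.034) and Krt18 (0.083).

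Of 649 log2 differences of 39 named genes under alternatives, 44 changed sign. None of those 44 was called. Against all pairs, Cd8a was 0.12, Il17a 0.036 and Trbc2 0.081, and with neutrophils from 0.5% as well, they were 0.17, 0.12 and 0.13. With neutrophils from 0.5% and the fitted mix, Cd8a was 0.028, Il17a 0.0012, Trbc2 0.021 and Wfdc21 0.027. At 2% S100, Retnlg was 0.044, Wfdc21 0.21, Irf7 -0.43, Usp18 -0.26, Itgal 0.32, Csf1r -0.70 and Hspa1a 0.54. With the stricter limits on barcodes, Cd8a was 0.020, Trbc2 0.045, Wfdc21 0.26 and Krt18 0.20. With the weight from the T-cell list alone, Cxcl3 was 0.017, Wfdc21 0.024 and Krt18 0.14. Cxcl3 was 0.0020 with no replicate block and 0.094 with neutrophils from 5%, where Krt18 was 0.45. Krt18 was 0.17 with at least 3 Cd3 UMIs, 0.038 with T cells under 0.1% and 0.019 for barcodes under 5 Cd74 UMIs, where Irf7 was -0.010. With 1 library left out, Cd8a ran between -0.25 and 0.066, Il17a between -0.45 and 0.22, Cxcl3 between -1.99 and 0.48, Csf1r between -0.013 and 0.81, Cd79b between -0.85 and 0.066, Krt18 between -1.19 and 0.76, and Stmn1 between -0.044 and 0.997. Expected shares of barcodes with a UMI at 600 UMIs per barcode were lower: Cd8a was at 11.1% in T-neutrophil barcodes and 14.0% in single T cells, against 30.2 and 26.3% unthinned, with 1 T-neutrophil barcode and 18 single T cells left out as too shallow.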

Other observations

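Barcodes with 1 Cd3 UMI and at least 0.5% S100 lie outside the rule and numbered 52, 71 and 57 in replicates 1, 2 and 3. Of these 180 barcodes, 23 had a UMI of the T-cell identity list and 15 a UMI of a T-cell receptor constant gene, against 16 and 14 of the 21 T-neutrophil barcodes with exactly 2 Cd3 UMIs and 23 and 22 of the 23 with exactly 3.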
